A study of Mus musculus with 4 samples.

Results

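The Serpina genes code for clade A serpins, proteins that liver secretes into plasma. The 10 genes described here are Serpina1a, Serpina1b, Serpina1c, Serpina1d, Serpina1e, Serpina3k, Serpina3m, Serpina3n, Serpina6 and Serpina7. They were chosen by symbol, and all 10 were found among the 46603 Ensembl gene identifiers of the count table, of which 46005 had a symbol. RNA was sequenced from the livers of 4 male HuRflox/flox mice (C57BL/6 J), so every animal carried the floxed alleles of the gene for the RNA-binding protein HuR. Mice 1 and 2, the control group, had received AAV8-TBGP-GFP, and mice 3 and 4, the HuRhKO group, had received AAV8-TBGP-Cre from another supplier, both by tail vein. TBGP is the promoter of thyroxine-binding globulin, the product of Serpina7, and is used to restrict Cre to hepatocytes, so the other cells of the liver keep the floxed alleles intact. Both groups drank sugar water and ate a Western diet (WDSW) for 4 weeks, and their ages were matched but are not stated. No liver without WDSW is among the 4 libraries, so all values below are of livers on this diet.

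Serpins inhibit proteases by offering a flexible stretch near the end of the protein, the reactive-centre loop, as bait. The protease cuts the loop and is trapped, and the residues of the loop set which protease is caught. Hepatocytes are the main source of plasma alpha-1 antitrypsin, which protects tissue from neutrophil elastase. Humans make it from a single gene, where C57BL/6 mice have the Serpina1a to Serpina1e copies. These are called antitrypsin copies below, but their loops differ, and which of them inhibit elastase was not tested. The Serpina3 genes are the mouse expansion of the antichymotrypsin gene, and Serpina6 and Serpina7 code for serpins that have lost inhibition and carry hormones.

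The libraries held between 13032095 and 19715577 counts, with the highest total in HuRhKO mouse 4. Elavl1, the gene for HuR, had 377 and 347 counts in the control mice against 541 and 648 in the mice labelled HuRhKO. As CPM, the count relative to the library total after TMM scaling, this was 27.1 ± 1.74 against 36.1 ± 2.36 (SD, n = 2 each), a log2 fold change of 0.41 with an SE of 0.135 and an adjusted p of 0.545 by edgeR's quasi-likelihood test. The targeted gene was therefore not lower in the libraries labelled HuRhKO, so each direction below is that of the labels, and counts on the whole gene do not tell whether the floxed part was removed. The 10 hepatocyte markers summed to between 66920 and 76824 CPM in every library. Of the 6 neutrophil markers Ly6g was at 0 in all 4, and the sum was at most 0.907 CPM. Markers of other liver cells were mostly higher in HuRhKO, with 6 of 6 tested endothelial markers (sums of 179 and 158 CPM in the control mice against 206 and 186), 5 of 6 Kupffer cell markers (133 and 138 against 162 and 146) and 6 of 7 stellate cell markers (294 and 296 against 312 and 364). The 5 erythroid markers were all higher, with sums of 363 and 450 against 488 and 711 CPM. At an unadjusted p under 0.05 these lists held 0, 0, 2 and 3 genes. Over all genes tested, 50.3% had a higher fitted level and 7.43% an unadjusted p under 0.05. Of 4 tested cholangiocyte markers 2 were higher and 2 lower, and the 1 tested adipocyte marker was lower. The part of these cell types in the results below was not tested. In bulk liver, fewer cells of a type and less RNA per cell cannot be told apart.

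The 10 genes took a large part of each library. Their summed share of the counts was 3.22% and 2.70% in control mice 1 and 2, and 2.24% and 2.33% in HuRhKO mice 3 and 4. The groups did not overlap in this share, which the Serpina1 copies and Serpina3k made up almost entirely. The 5 Serpina1 copies together held 2.33%, 1.98%, 1.74% and 1.73% of the counts in mice 1 to 4, and Serpina3k alone held 0.808%, 0.646%, 0.408% and 0.496%. An exact permutation test of 2 mice against 2 cannot give a p below 0.333, so these shares are values only.

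Per kilobase of transcript, which is the scale on which levels of different genes may be compared, Serpina1c stood first with 4622 to 6628 CPM per kb over the 4 mice. Serpina3k (1910 to 3854), Serpina1b (2309 to 3082), Serpina1a (2097 to 2717) and Serpina1d (1675 to 2146 CPM per kb) followed, and each overlapped the next in this order. The length used was that of 1 chosen GENCODE M21 transcript per gene, 1762 bases for Serpina1b but 1360 for Serpina1a. Other transcripts were not tried, so the place of Serpina1b and its overlaps hold for these lengths only. Serpina1e ranged from 393 to 1463 CPM per kb, below Serpina1d in every mouse. Serpina6 (124 to 231), Serpina3m (149 to 217) and Serpina3n (124 to 190 CPM per kb) overlapped each other, and Serpina7 was the lowest with 7.52 to 19.5 CPM per kb. The ranges of the antitrypsin copies and of Serpina3k thus lay above those of both hormone carriers.

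**Figure D1:**
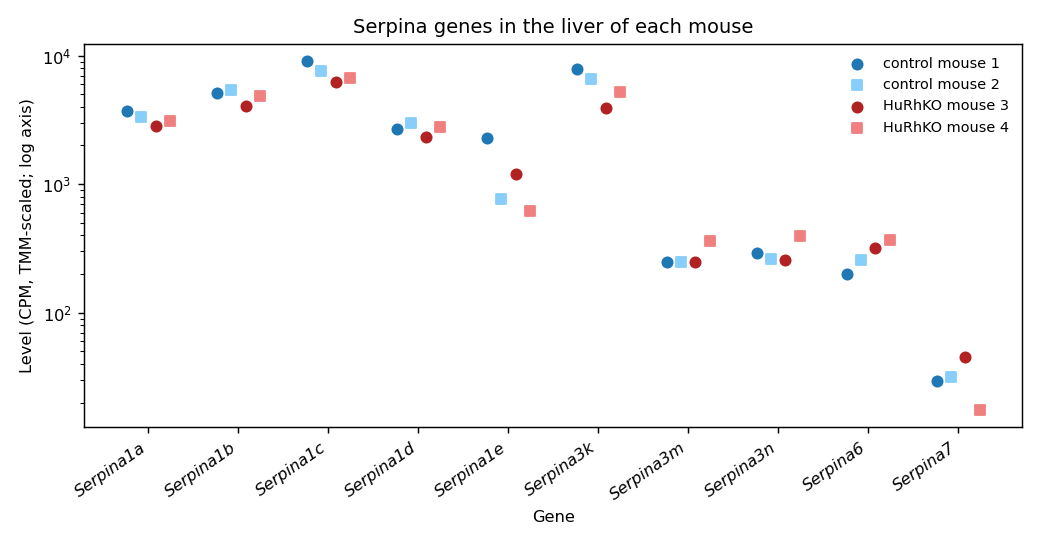
Level of each of the 10 Serpina genes (TMM-scaled CPM, logarithmic axis) in the 4 livers, with 1 point per mouse, blue for control and red for HuRhKO. Serpina3k is lower in both HuRhKO mice, Serpina6 is higher in both, and Serpina1e spreads from 619 to 2304 CPM with no separation of the groups.

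None of the 10 genes passed an adjusted p of 0.05 in edgeR's quasi-likelihood test over 13001 genes, where 3 genes (0.0231%) did. At an unadjusted p under 0.05, 1 of the 10 was higher in HuRhKO (Serpina6), where 4.04% of all genes tested were, and 1 was lower (Serpina3k), where 3.39% were, or 7.43% in either direction. None reached a 1.8-fold change together with an unadjusted p under 0.05, against 2.12% of all genes tested, of which 1.21% were higher and 0.915% lower. The groups did not overlap for 1 gene that was higher, Serpina6, as for 19.3% of all genes, and for 4 that were lower, Serpina1a, Serpina1b, Serpina1c and Serpina3k, as for 18.8%. Of the 10, 6 had a lower fitted level in HuRhKO, where 49.7% of all genes did, and 4 a higher one, where 50.3% did. Their median log2 fold change was -0.19 against 0.002 over all genes.

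**Figure D2:**
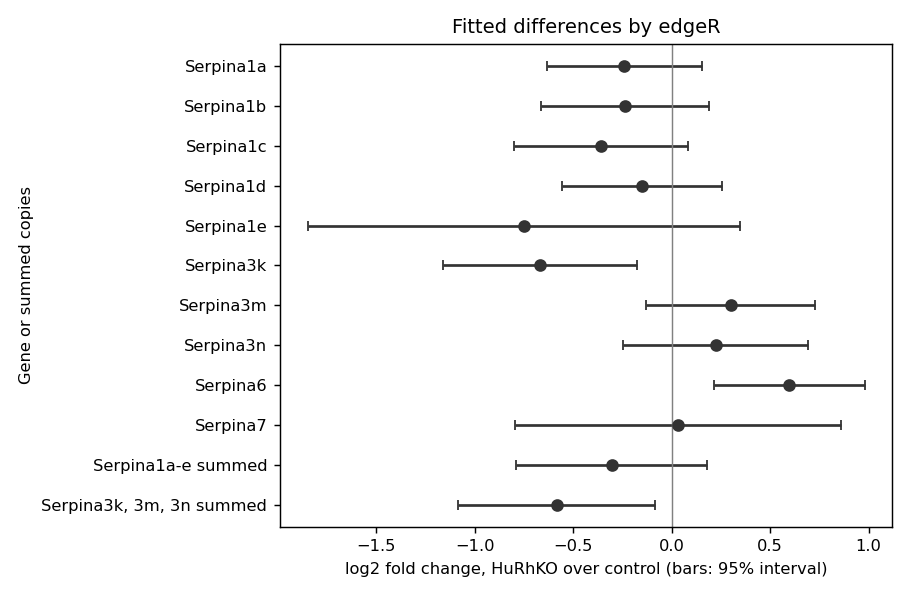
Fitted log2 fold change of HuRhKO over control for each of the 10 genes and for the summed copies, with bars for the 95% interval from edgeR. The intervals of Serpina3k, of the Serpina3k, 3m and 3n sum and of Serpina6 leave out 0 before any adjustment, and those of Serpina1e and Serpina7 are the widest.

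The 5 antitrypsin genes lie side by side on the minus strand of chromosome 12 (GRCm38, GENCODE M21), from Serpina1b at chr12:103728156-103830373 to Serpina1e at chr12:103946931-103958975. Each has 4 coding exons and 1239 coding bases without the stop codon, and over these bases any pair of copies was between 96.3% and 98.5% identical. The rate of differences was higher in the reactive-centre loop than in the rest of the coding sequence, and the coding stretch of the loop is shown because the loop sets the target protease. The stretches cover coding bases 1087 to 1167, in the last coding exon, from the GENCODE M21 transcripts, and capitals mark bases that differ from Serpina1a.
Serpina1a: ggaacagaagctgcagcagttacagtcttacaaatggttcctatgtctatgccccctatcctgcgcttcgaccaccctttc
Serpina1b: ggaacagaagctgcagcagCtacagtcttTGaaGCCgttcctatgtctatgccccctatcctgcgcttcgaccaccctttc
Serpina1c: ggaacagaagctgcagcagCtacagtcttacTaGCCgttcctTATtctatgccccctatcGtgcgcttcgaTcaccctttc
Serpina1d: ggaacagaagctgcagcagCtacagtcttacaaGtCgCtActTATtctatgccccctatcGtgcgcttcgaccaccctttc
Serpina1e: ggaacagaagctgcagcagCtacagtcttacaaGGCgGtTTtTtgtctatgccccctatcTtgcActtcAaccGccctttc
On GRCm38 these are, in the same order, chr12:103853750-103853830, chr12:103728317-103728397, chr12:103895087-103895167, chr12:103763755-103763835 and chr12:103947093-103947173. Serpina1b differed from Serpina1a at 6 of the 81 bases, Serpina1d at 9, Serpina1c at 10 and Serpina1e at 12. Over all 10 pairs of copies, between 6.17% and 14.8% of the loop bases differed, against 0.777% to 3.11% of the other 1158 coding bases.

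Because the copies are so alike, how much of each transcript is its own bears on every count. Of all 50-base windows of the Serpina1a transcript, 19.2% occurred in no other gene of the annotation, and of Serpina1c 20.7%. The share was 49.1% for Serpina1d, 64.2% for Serpina1b and 64.4% for Serpina1e. With 150-base windows it rose to 49.5% for Serpina1a, 40.3% for Serpina1c, 76.7% for Serpina1d, 83.6% for Serpina1b and 92.4% for Serpina1e. The split of reads between Serpina1a and Serpina1c is therefore the least certain of the 10 genes, and the read length and the treatment of reads that match several genes are not given in the sources used here. RSEM, which the submitters' processing notes name, estimates the split of such reads from the data, so the whole numbers of the table may be rounded estimates. The annotated models also overlap, since that of Serpina1b spans the whole of Serpina1d. Windows were cut from 1 transcript per gene, of 1762 bases for Serpina1b and 1575 for Serpina1e but 1360 and 1361 for Serpina1a and Serpina1c. The coding length is the same in all copies, so the longer transcripts hold more noncoding sequence. Whether these livers use that sequence was not tested, and without it the shares of Serpina1b and Serpina1e may be smaller. The non-member models that share sequence with the copies, Gm8893 and B430119L08Rik, had 92 to 140 and 164 to 406 counts.

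**Figure D3:**
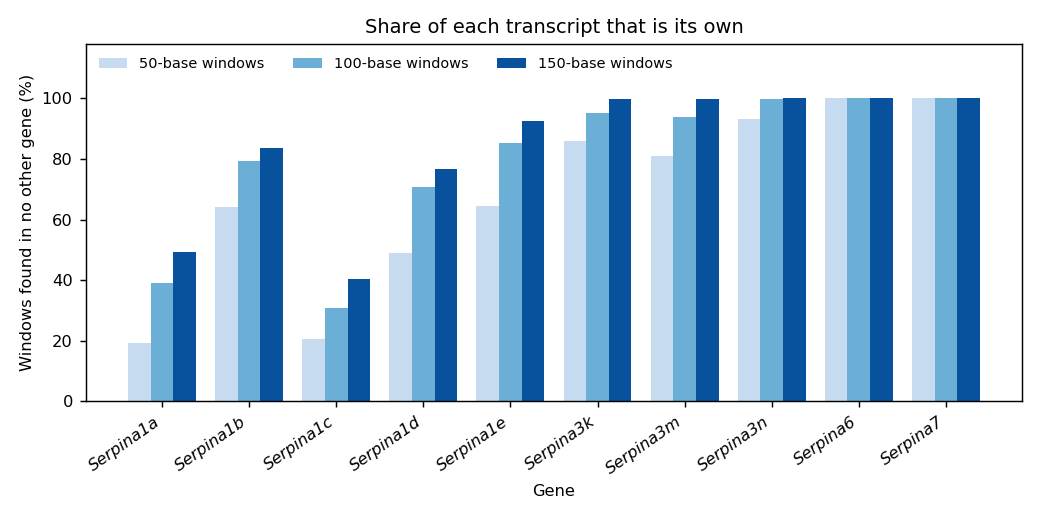
Share of 50-, 100- and 150-base windows of each transcript that occur in no other annotated gene (percent, bars from 0). Serpina1a and Serpina1c stay under 50% at every window length, and Serpina6 and Serpina7 are at 100%.

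The antitrypsin copies together were lower in both HuRhKO livers, by less than the test could call. Their summed level, which does not depend on how reads were split between copies, was 22857 and 20130 CPM in control mice 1 and 2 and 16750 and 18079 CPM in HuRhKO mice 3 and 4. The groups did not overlap. The log2 fold change was -0.30 with an SE of 0.211 and a 95% interval from -0.79 to 0.18, and edgeR's adjusted p was 0.783.

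Serpina1c, the most abundant copy, had 9021 and 7619 CPM in the control mice and 6291 and 6686 CPM in the HuRhKO mice. Both HuRhKO values were below both control values, and this was the copy with the smallest p, with a log2 fold change of -0.36, an SE of 0.193 and an adjusted p of 0.713 by edgeR. Serpina1a, the copy that shares most sequence with it, had 3695 and 3321 CPM against 2852 and 3087. Serpina1b had 5135 and 5430 CPM in the control mice and 4069 and 4887 CPM in the HuRhKO mice. For both genes the groups did not overlap, and the log2 fold change was -0.24, with adjusted p-values of 0.795 and 0.820 by edgeR. Serpina1d had 2704 and 2991 CPM in the control mice against 2336 and 2797, so that HuRhKO mouse 4 lay between the control mice. Its log2 fold change was -0.15 with an interval from -0.56 to 0.26.

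Serpina1e behaved unlike its neighbours, since its level varied between mice of the same group. It had 2304 CPM in control mouse 1, 766 in control mouse 2, 1205 in HuRhKO mouse 3 and 619 in HuRhKO mouse 4. The groups overlapped, and each group held 1 high and 1 low animal. The control mice differed 3.01-fold and the HuRhKO mice 1.95-fold. Among the 1384 genes with a mean of at least 100 CPM, the median gene differed 1.12-fold between the control mice and 1.11-fold between the HuRhKO mice. With Serpina1e itself counted, 5 of these genes (0.361%) were at least as far apart between the control mice, and 16 (1.16%) between the HuRhKO mice. The log2 fold change of Serpina1e between groups was -0.75 with an SE of 0.477, the largest SE of the 10, and an adjusted p of 0.766 by edgeR. Without control mouse 1 its log2 fold change was 0.24, so the direction rested on that animal. With Serpina1e left out, the sum of the other 4 copies had a log2 fold change of -0.27 with an SE of 0.208, a comparison chosen after seeing the data.

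Within the antitrypsin counts, Serpina1c made up 39.5%, 37.9%, 37.6% and 37.0% of the summed counts in mice 1 to 4, the largest part in each. Serpina1b made up 22.5%, 27.0%, 24.3% and 27.0%, and Serpina1d 11.8%, 14.9%, 13.9% and 15.5%, with overlapping groups in both. Serpina1e moved most, with 10.1%, 3.81%, 7.19% and 3.42%. The 95% Wilson intervals, which cover counting error only, were 9.97% to 10.2% for the first of these and 3.36% to 3.49% for the last, so the mice differed by more than counting error. Serpina1a was at 16.2% and 16.5% in the control mice and 17.0% and 17.1% in the HuRhKO mice. For Serpina1a and Serpina1c the groups did not overlap in share, each with an exact permutation p of 0.333, the smallest that the design allows. The shares of a mouse sum to the whole, so those of the copies are not separate results.

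**Figure D4:**
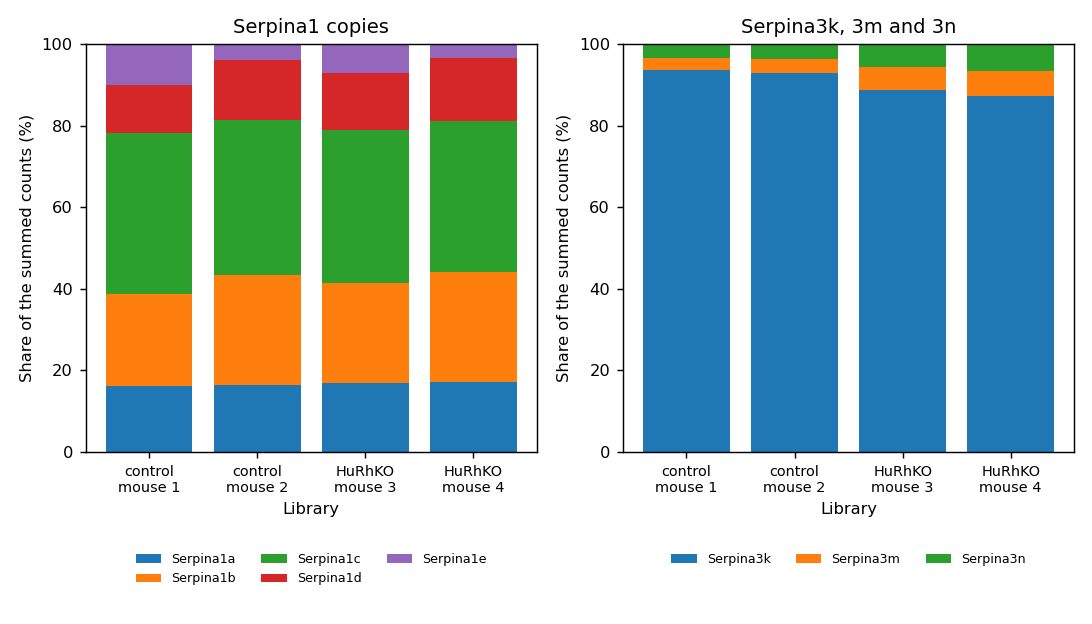
Stacked bars of the share (percent) of each copy in the summed counts of the 5 Serpina1 genes (left) and of Serpina3k, Serpina3m and Serpina3n (right), with 1 bar per mouse. Serpina1e takes 10.1% and 7.19% in mice 1 and 3 but 3.81% and 3.42% in mice 2 and 4, and Serpina3k takes a smaller part in both HuRhKO mice.

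The stretch around an HNF1-type motif just before the RefSeq gene starts is shown because it lets the 5 copies be compared near those starts. HNF1 is a hepatocyte transcription factor. The letters searched were GTTAAT on both strands, in the RefSeq windows from 250 bases before to 50 bases after the gene start (GRCm38.p6), and capitals mark the match with 50 bases on each side, read on the minus strand.
Serpina1a: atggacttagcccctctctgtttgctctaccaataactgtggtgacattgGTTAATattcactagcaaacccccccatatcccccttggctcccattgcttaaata
Serpina1b: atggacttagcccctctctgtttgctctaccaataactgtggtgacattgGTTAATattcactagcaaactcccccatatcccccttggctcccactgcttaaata
Serpina1c: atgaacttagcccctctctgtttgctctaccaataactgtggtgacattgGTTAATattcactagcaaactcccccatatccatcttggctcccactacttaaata
Serpina1d: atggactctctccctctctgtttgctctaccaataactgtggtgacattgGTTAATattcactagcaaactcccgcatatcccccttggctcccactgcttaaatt
Serpina1e: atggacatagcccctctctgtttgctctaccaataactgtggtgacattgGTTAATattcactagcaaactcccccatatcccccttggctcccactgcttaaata
These are chr12:103863585-103863690, chr12:103738160-103738265, chr12:103904922-103905027, chr12:103773594-103773699 and chr12:103956920-103957025. Over the 106 bases Serpina1e differed from Serpina1b at 1 base and from Serpina1a at 3, while Serpina1c and Serpina1d differed from each other at 10. These are differences between copies in the reference genome. They do not bear on differences between mice, and sequence variation between the mice was not tested. The match lies 16 to 27 bases before the RefSeq start in Serpina1a to Serpina1d and 78 bases before it in Serpina1e. The GENCODE M21 models of Serpina1b and Serpina1e start further upstream, at 103830373 and 103958975 on the minus strand. In that annotation the stretches of these genes therefore lie inside the models. Of the 10 genes 7 had a RefSeq window, and 6 of these 7 held GTTAAT, as did 7.1% of 32851 windows of that length. The exception was Serpina3n. The windows of the 5 Serpina1 copies were 91.7% to 98.4% identical to each other over the aligned bases. Their matches are therefore not separate observations, for this motif or the next. A C/EBP-type motif, TTGCNNAA, was in 5 of the 7 and in 10.8% of all windows, and TTCNNNGAA, the STAT-type motif, was in 0 of the 7 and in 8.3%. Such matches describe letters and are not evidence of binding.

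The Serpina3 genes were counted at very different levels and did not move as a set. They lie on the plus strand of chromosome 12, with Serpina3k at chr12:104338486-104346144, Serpina3m at chr12:104338486-104394257 and Serpina3n at chr12:104406729-104414329. Their coding sequences are less alike than those of the antitrypsin copies, with 92.0% identity between Serpina3k and Serpina3m and 85.2% between Serpina3m and Serpina3n. The coding stretch of the loop is shown because Serpina3m and Serpina3n differ more there than elsewhere, with capitals for bases of Serpina3m that differ from Serpina3n. Serpina3k is in lower case throughout because its stretch has another length.
Serpina3n: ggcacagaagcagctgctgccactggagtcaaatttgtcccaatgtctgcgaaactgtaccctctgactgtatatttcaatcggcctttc
Serpina3m: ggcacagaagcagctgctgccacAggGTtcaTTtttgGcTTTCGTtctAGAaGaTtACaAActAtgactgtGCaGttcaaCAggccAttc
Serpina3k: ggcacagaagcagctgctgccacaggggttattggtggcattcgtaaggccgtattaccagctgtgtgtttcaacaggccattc
These lie in the last coding exon at chr12:104413448-104413537, chr12:104393769-104393858 and chr12:104345269-104345352. Serpina3m and Serpina3n differed at 28 of 90 loop bases (31.1%) and at 13.6% of the other coding bases. With 50-base windows, 86.0% of the Serpina3k transcript, 80.9% of Serpina3m and 93.1% of Serpina3n occurred in no other gene, and with 150 bases at least 99.7% of each. The models of Serpina3k and Serpina3m start at the same annotated base and overlap.

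Serpina3k was lower in both HuRhKO livers, with the smallest p among the 6 genes that had a lower fitted level. It is also known as contrapsin and is an abundant plasma inhibitor of trypsin-like proteases and tissue kallikrein. It had 7928 and 6570 CPM in the control mice against 3928 and 5194 CPM in the HuRhKO mice, or 7249 ± 960 against 4561 ± 895 CPM (SD, n = 2 each). Both HuRhKO values lay below both control values, and mice of 1 group differed 1.21-fold (control) and 1.32-fold (HuRhKO). The log2 fold change was -0.67 with an SE of 0.214 and a 95% interval from -1.16 to -0.18. Its unadjusted p was 0.0139 and its adjusted p 0.530 by edgeR's quasi-likelihood test. The adjusted p was 0.0384 when edgeR was run without the filter on low counts and 0.0333 with the DESeq2 Wald test, so the call depends on the tool and on the filter.

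Serpina3m and Serpina3n, by contrast, were higher in only 1 of the HuRhKO livers. Serpina3n is an acute phase inhibitor of granzyme B and leukocyte proteases. It had 293 and 261 CPM in the control mice, 255 in HuRhKO mouse 3 and 392 in HuRhKO mouse 4. Serpina3m had 247 and 246 CPM in the control mice, 247 in HuRhKO mouse 3 and 360 in HuRhKO mouse 4. In both genes mouse 3 lay within or below the range of the control mice and mouse 4 above all others. The log2 fold changes were 0.22 (SE 0.204) for Serpina3n and 0.30 (SE 0.186) for Serpina3m, with adjusted p-values of 0.846 and 0.762 by edgeR. Without HuRhKO mouse 4 the value of Serpina3n was -0.12. That library also had the highest total count and the highest sums of the erythroid and stellate cell markers, and the part of these in both genes was not tested.

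The make-up of the Serpina3 counts therefore differed between the groups in every mouse. Serpina3k took 93.6% and 92.8% of the summed counts of these 3 genes in the control mice and 88.7% and 87.4% in the HuRhKO mice. Serpina3m went from 2.92% and 3.48% to 5.57% and 6.06%, and Serpina3n from 3.46% and 3.69% to 5.75% and 6.59%. For each of the 3 genes both control mice lay on 1 side of both HuRhKO mice, with an exact permutation p of 0.333, the smallest that 2 against 2 allows. These are not 3 separate results, since the shares of a mouse sum to the whole and a smaller part for Serpina3k enlarges the others. In HuRhKO mouse 3 the level of Serpina3m was 247 CPM, against 247 and 246 CPM in the control mice, although its share was larger. The sum of the 3 genes followed Serpina3k, with a log2 fold change of -0.58, an SE of 0.217 and an adjusted p of 0.586 by edgeR.

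The carrier of glucocorticoids had higher values in both HuRhKO livers, short of an adjusted p of 0.05, and the carrier of thyroxine varied between mice. Serpina6, at chr12:103646630-103657212 on the minus strand, codes for corticosteroid-binding globulin. It had 199 and 257 CPM in the control mice against 319 and 370 CPM in the HuRhKO mice, or 228 ± 40.9 against 345 ± 35.8 CPM (SD, n = 2 each). Both HuRhKO values were above both control values. The log2 fold change was 0.60 with an SE of 0.167 and a 95% interval from 0.21 to 0.98. This gave the smallest p of the 10 genes, 0.00698 unadjusted and 0.441 adjusted by edgeR. Over all alternative settings its log2 fold change lay between 0.41 and 0.79 and its smallest adjusted p was 0.1. Each window of its transcript was its own, so no near copy shares its reads. The order of the 4 libraries, lowest in control mouse 1 and highest in HuRhKO mouse 4, was that of the erythroid and the stellate cell marker sums too, and 863 of the 13001 genes (6.64%) had it. The part of red cell or stellate cell RNA in this result was not tested.

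Serpina7, on the X chromosome at chrX:139079257-139085236, codes for thyroxine-binding globulin, and its promoter is the kind that both AAV8 vectors carried. It had 389, 425, 650 and 330 counts in mice 1 to 4, or 29.3 and 31.7 CPM in the control mice, 45.3 in HuRhKO mouse 3 and 17.5 in HuRhKO mouse 4. The HuRhKO mice lay on either side of the control mice and differed 2.59-fold. The log2 fold change was 0.03 with an SE of 0.36 and a 95% interval from -0.79 to 0.86, so changes up to either bound are not excluded by these 4 mice. Without HuRhKO mouse 3 it was -0.82, with an unadjusted p of 0.00432 and an adjusted p of 0.488 by edgeR. Without HuRhKO mouse 4 it was 0.57, with an unadjusted p of 0.0161 and an adjusted p of 0.982 by edgeR, and without control mouse 1 it was -0.04.

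Along chromosome 12 the 9 members other than Serpina7 lie within 799.5 kb with 17 further Serpina genes, of which 7 had enough counts to be tested. Serpina10, which codes for an inhibitor of coagulation factor X with protein Z, lies next to Serpina6. It was the only one of the 7 with an unadjusted p under 0.05, where 7.43% of all genes tested had one. It had 121 and 114 CPM in the control mice against 139 and 158 CPM in the HuRhKO mice, a log2 fold change of 0.34 with an SE of 0.133 and an adjusted p of 0.611 by edgeR. The neighbours Serpina6 and Serpina10 were thus both higher in both HuRhKO livers, while the antitrypsin block beside them was not. Groups that do not overlap, with HuRhKO higher, were found for 19.3% of all genes tested. Whether neighbouring genes moved together was not tested. Of the other 6 tested genes, all had a lower fitted level in HuRhKO with overlapping groups, among them Serpina12, which codes for the adipokine vaspin. Over all genes tested 49.7% had a lower fitted level. Serpina11 was close to level, with a log2 fold change of -0.02 (SE 0.125).

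The variation of Serpina1e between mice was shared by a gene further along the cluster. Serpina4-ps1, annotated as a pseudogene, had 4840 counts in control mouse 1, 989 in control mouse 2, 2667 in HuRhKO mouse 3 and 443 in HuRhKO mouse 4, or 364, 73.8, 186 and 23.5 CPM. This is the order of the mice seen in Serpina1e, with a 15.5-fold span where Serpina1e had 3.72-fold. Serpina9 had 27, 9, 11 and 4 counts in the same order, a number too low to place mice 2 and 3. Serpina3f had this order too with a span of 1.39-fold, and Serpina11, which lies between Serpina1e and Serpina9, differed at most 1.08-fold between any mice. The order occurred in 779 of the 13001 genes tested (5.99%), of which 28 had a span of at least 3-fold, and it was looked for after the values were seen. It is not limited to Serpina genes, since the transcriptional regulator Onecut1 had 70.3, 9.03, 27.7 and 7.54 CPM in mice 1 to 4, a 9.32-fold span. The high values fell in mice 1 and 3, which are in different groups.

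**Figure D5:**
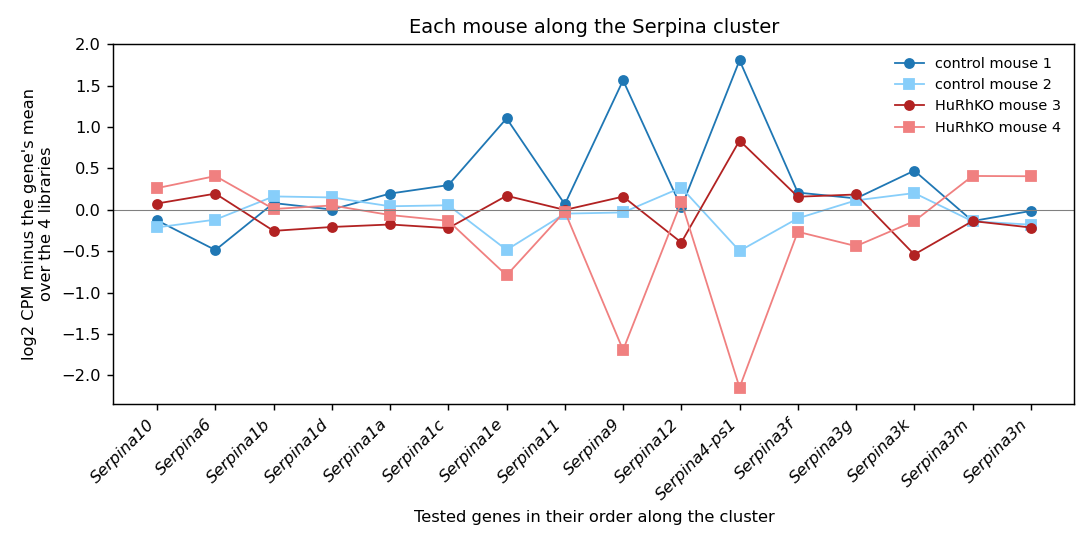
For each tested Serpina gene, in its order along chromosome 12, the log2 CPM of each mouse minus the mean of the gene over the 4 mice. Serpina1e, Serpina9 and Serpina4-ps1 spread widely with control mouse 1 at the top and HuRhKO mouse 4 at the bottom, while Serpina11 and Serpina12 between them do not.

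Among genes with related roles, none passed an adjusted p of 0.05 in edgeR, where 0.0231% of all genes tested did. Over all genes tested, 7.43% had an unadjusted p under 0.05 in either direction. A higher fitted level was found for 50.3% of them. Among 14 tested serpins of other clades, 10 had a higher fitted level and only Serpinb8, an intracellular serpin, had an unadjusted p under 0.05, with 2.47 ± 0.014 against 4.70 ± 0.0359 CPM. Its 33 counts in each control mouse and 67 and 89 in the HuRhKO mice gave an adjusted p of 0.450 by edgeR. Serpinc1, antithrombin, had 1682 ± 20.6 against 1854 ± 56.6 CPM (adjusted p = 0.874 by edgeR). The serine proteases that such serpins restrain gave 0 of 14 tested genes with an unadjusted p under 0.05. Elane, neutrophil elastase and the main target of human antitrypsin, had 1, 12, 3 and 0 counts in mice 1 to 4 and was not tested. The abundant liver proteases Plg, plasminogen, and F2, prothrombin, had log2 fold changes of -0.01 (SE 0.164) and 0.19 (SE 0.156).

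The genes that fold and export serpins were tested because misfolded antitrypsin is a known load on the endoplasmic reticulum. Over all genes tested, 49.7% had a lower fitted level and 7.43% an unadjusted p under 0.05. Of the 13 folding and export genes, 9 had a lower fitted level and only Pdia4, a disulfide isomerase, had an unadjusted p under 0.05. It had 191 and 131 CPM in the control mice against 95.5 and 97.3 in the HuRhKO mice (log2 fold change -0.74, SE 0.183, adjusted p = 0.360 by edgeR). Of 21 transcriptional regulators, 16 had a lower fitted level and the median difference was -0.08 on the log2 scale. Only Foxa1 had an unadjusted p under 0.05, with 33.0 CPM in control mouse 1 and 12.8 to 15.4 CPM in mice 2 to 4, so that it was high in that single animal. Of 16 carriers and targets of glucocorticoid and thyroid hormone, only Sgk1, a kinase induced by glucocorticoids, had an unadjusted p under 0.05. It had 13.8 and 15.9 CPM in the control mice and 23.2 and 19.2 CPM in the HuRhKO mice, with an adjusted p of 0.530 by edgeR.

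Serpina3n is induced with the acute phase genes in inflamed liver, and this group was the one with the most unadjusted calls. Of 22 tested acute phase genes outside the Serpina family, 8 were higher and 1 was lower at an unadjusted p under 0.05. Over all genes tested, 4.04% were higher and 3.39% lower at this threshold. None of the 22 had an adjusted p under 0.05. The list did not rise as a whole, since 10 of the 22 had a higher fitted level and 12 a lower one. Over all genes tested 49.7% had a lower one. The median log2 fold change of the 22 was -0.08. The most abundant of them, C3 and Fgb, had log2 fold changes of -0.26 (SE 0.223) and -0.11 (SE 0.164). Lcn2, lipocalin 2, had 3.09 and 2.61 CPM in the control mice and 8.44 and 16.3 CPM in the HuRhKO mice, and was highest in HuRhKO mouse 4, as Serpina3n was. Saa1, serum amyloid A, was higher in both HuRhKO mice alike, with 71.6 and 67.2 CPM against 40.1 and 27.0, which Serpina3n was not. Saa2, Saa3 and the metallothionein Mt2 were also past 1.8-fold with an unadjusted p under 0.05, with log2 fold changes of 0.97, 1.18 and 1.67, and the groups overlapped in Mt2. The gene that was lower was Hpx, hemopexin, with 2253 and 2195 CPM in the control mice and 917 and 752 CPM in the HuRhKO mice. Among 17 tested genes of other plasma proteins, 0 had an unadjusted p under 0.05, where 7.43% of all genes tested had one. Alb, albumin, had a log2 fold change of 0.04 with an SE of 0.23.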

How the data were processed

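Total liver RNA of 4 mice was sequenced, and the authors deposited whole-number counts per Ensembl gene without normalization. Their processing notes name RSEM and GRCm38. The aligner, the annotation, the use of strand and the treatment of reads with several matches are not given in the sources used here. Each column was matched to a mouse by its label. Counts were compared with edgeR 4.0.16 (R 4.3.3) by the quasi-likelihood test, with TMM factors, the default filter (a minimum of 10 counts and a total of 15) and Benjamini-Hochberg adjustment over the 13001 genes kept. Values are CPM on TMM-scaled library sizes. A count of 0 allows up to 3 counts, or 0.152 to 0.23 CPM on the unscaled library totals. Shares were compared by a two-sided exact permutation test. No pair of libraries agreed within sampling noise (chi-square per degree of freedom 23.0 to 35.7), so none was counted as a duplicate. Coordinates and transcripts came from GENCODE M21, promoter windows from RefSeq, and sequences were aligned with biopython 1.88. The edgeR step was tested on simulated counts.

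The members and lists were chosen with earlier results of these data known. The genes named are the 10 members, Elavl1 and, drawn from each list, genes with an adjusted p under 0.05, genes past 1.8-fold with an unadjusted p under 0.05, and otherwise its 2 most abundant genes and the 2 with the smallest p. Serpina3f, Serpina11, Serpina12, Elane, Onecut1, the near copies and the individual cell markers were named after their values were seen. Alternatives were DESeq2 size factors, upper quartile factors, no composition factor, scaling without the 10 members, no filter, a stricter filter of 10 counts in every sample, DESeq2 1.42.0, edgeR's exact test, limma-voom (limma 3.58.1), the robust fit, and leaving out each mouse.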

Additional observations from a re-analysis of the deposited data

How the results depend on the processing

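The summed antitrypsin copies stayed lower in HuRhKO under every alternative, with a log2 fold change from -0.39 to -0.22 when 1 mouse was left out, and the Serpina3k, Serpina3m and Serpina3n sum from -0.81 to -0.40. The number of the 10 genes with an adjusted p under 0.05 was 1 in edgeR without a filter and 1 with the DESeq2 Wald test, in both cases Serpina3k. Those settings called 161 and 85 of all genes, edgeR's exact test 120, and edgeR's main test 3. The number past 1.8-fold with an unadjusted p under 0.05 ranged from 0 to 1 when a mouse was left out. The gene past it was Serpina1e without control mouse 2, with a log2 fold change of -1.34. Without HuRhKO mouse 4 it was Serpina3k, with -0.88. With 1 mouse left in a group, that mouse is assumed to vary like the others. Between 6 and 7 genes had a lower fitted level. The log2 fold change reversed for Serpina1e without control mouse 1 (0.24), for Serpina3n without HuRhKO mouse 4 (-0.12), and for Serpina7 with limma-voom (-0.14), without control mouse 1 (-0.04) and without HuRhKO mouse 3 (-0.82). The cause was not tested. Leaving out 1 mouse moved the log2 fold change between -1.34 and 0.24 for Serpina1e, between -0.12 and 0.48 for Serpina3n, and between -0.82 and 0.57 for Serpina7. No paired analysis was possible because the groups compared share no replicate number.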

Other observations

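Krt19, a marker of bile duct cells, had 162 counts in control mouse 1, where Serpina1e and Serpina4-ps1 were highest, and 5, 7 and 34 counts in mice 2 to 4. The summed cholangiocyte markers were 52.8, 27.5, 39.6 and 49.8 CPM in mice 1 to 4, an order that differs from that of Serpina1e in placing mouse 4 second. Most of each sum was Spp1, with 31.5, 22.3, 34.8 and 41.9 CPM in mice 1 to 4. Krt7 and Epcam were, like Krt19, highest in control mouse 1, with 2.63 and 3.61 CPM, while Spp1 and Sox9 were highest in HuRhKO mouse 4. A link of these markers with Serpina1e was not tested.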
